A study of Mus musculus with 8 samples.

Results

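Collagens are the structural proteins of the dermis, and the genes of their chains were followed here in mouse skin. The members were the genes whose name in the array files has the form Col, a number, a and a number, such as Col1a1. This rule took 40 genes, with 78 probes, out of 27741 genes on the array. Of these, 37 could be tested, out of 19097 tested genes on the whole array, since the scanner software called their probe well above background on 4 or more of the 8 arrays. Where a gene had several probes, the one with the highest mean signal stood for it.

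RNA came from the dorsal skin of SKH-1 hairless mice, all of them males of 19 weeks. In every mouse the back had been exposed to UVB over 10 weeks. The enalapril group (n = 4) then received 1% w/v enalapril maleate in 30 vol % ethanol, and the vehicle group (n = 4) received 30% ethanol alone, 5 applications a week for 2 weeks. Enalapril is a prodrug inhibitor of angiotensin-converting enzyme, the enzyme that makes angiotensin II, and the comparison asks what the drug changes in UVB-exposed skin. There were no unirradiated mice among the samples analysed here, so no level can be set against that of skin without UVB. Each RNA was a sample of whole dorsal skin labelled as a biological replicate and hybridised to a 1-colour array, and the labels say that RNAs were chosen for a 28S/18S band ratio above a set limit. The series text also speaks of 6 weeks of application and 6 mice a group, which are not analysed here.

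Slide 2 and scan 2 held the 4 enalapril arrays, and slide 1 and scan 1 the 4 vehicle arrays, so for every difference below the slide, the scan and the drug cannot be told apart. Of the spots, 69.1% to 72.2% were well above background on enalapril arrays and 67.1% to 72.7% on vehicle arrays. The 75th percentile of intensity, used to scale each array, was 1540 on vehicle arrays 2 and 3. It was 892 and 884 on vehicle arrays 1 and 4, and 821.5 to 1070 on enalapril arrays. Enalapril array 4 stood apart from its group, with a median correlation of 0.982 to the others over tested genes, while the other 7 arrays had 0.990 or 0.991 within their group. It was the highest enalapril array for 21 of the 37 tested collagen genes and the lowest for 4. The differences of Col6a1, Col6a2, Col4a1 and Col4a2 and the counts of called genes are given with and without it.

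Collagen chains wind around each other in threes to form a triple helix, which is modified, secreted, trimmed and crosslinked outside the cell. The fibrillar collagens I, III and V build the fibrils that give skin its tensile strength, and collagens XII and XIV sit on the surface of those fibrils. Collagen VI forms beaded filaments around cells, collagen IV the sheet of the basement membrane, collagen VII the anchoring fibrils beneath it, and collagen XVII spans the membrane of basal keratinocytes. Dermal fibroblasts make most of the fibrillar collagen, and loss or disorder of collagen fibrils is a known feature of UVB-exposed skin.

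Several collagen chain genes lie next to each other in the genome, and RefSeq promoter windows of the neighbours whose values are set side by side below are shown for that reason. Col6a1 and Col6a2 are neighbours on chromosome 10, and Col4a1 and Col4a2 on chromosome 8, with 0 coding genes between them in either pair. Each window holds 250 bases before and 50 bases after the annotated start, in the GRCm38.p6 build. Capitals mark matches to any of the motifs TATAAA (known as the TATA box), CCAAT (known as the CCAAT box), GGGCGG (known as the GC box) and TGANTCA (a form bound by the factor AP-1), searched on both strands, so that a GC box on the other strand reads CCGCCC. The windows are Col6a1 at chr10:76725995-76726294 (minus strand), the more downstream of the Col6a2 starts at chr10:76623355-76623654 (minus strand), Col4a1 at chr8:11312777-11313076 (minus strand) and Col4a2 at chr8:11312555-11312854 (plus strand).
Col6a1: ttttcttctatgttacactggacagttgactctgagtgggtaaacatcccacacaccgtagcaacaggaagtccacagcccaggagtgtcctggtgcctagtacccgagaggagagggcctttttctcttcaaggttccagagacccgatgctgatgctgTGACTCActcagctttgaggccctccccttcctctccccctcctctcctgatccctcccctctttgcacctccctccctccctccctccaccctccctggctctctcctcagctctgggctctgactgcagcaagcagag
Col6a2: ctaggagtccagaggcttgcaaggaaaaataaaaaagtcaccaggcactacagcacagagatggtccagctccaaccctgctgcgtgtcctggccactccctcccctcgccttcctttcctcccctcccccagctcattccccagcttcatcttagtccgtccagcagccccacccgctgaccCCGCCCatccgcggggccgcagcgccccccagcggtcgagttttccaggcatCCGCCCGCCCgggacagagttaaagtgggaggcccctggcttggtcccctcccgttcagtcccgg
Col4a1: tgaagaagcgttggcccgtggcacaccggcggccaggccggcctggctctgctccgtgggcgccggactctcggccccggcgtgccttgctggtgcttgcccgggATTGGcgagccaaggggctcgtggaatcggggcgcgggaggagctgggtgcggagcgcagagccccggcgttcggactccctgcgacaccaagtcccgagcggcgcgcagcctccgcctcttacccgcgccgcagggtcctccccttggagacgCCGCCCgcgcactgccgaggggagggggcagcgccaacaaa
Col4a2: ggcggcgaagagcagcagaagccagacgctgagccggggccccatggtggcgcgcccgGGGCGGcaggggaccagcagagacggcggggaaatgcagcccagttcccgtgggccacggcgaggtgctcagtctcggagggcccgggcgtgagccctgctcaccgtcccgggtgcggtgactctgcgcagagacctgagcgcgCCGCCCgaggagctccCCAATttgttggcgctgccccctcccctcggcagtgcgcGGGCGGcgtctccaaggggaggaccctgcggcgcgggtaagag
The Col4a1 and Col4a2 windows lie on opposite strands and share 78 bases. The Col6a1 window holds a TGANTCA match, written TGACTCA, and no GGGCGG, while the Col6a2 window shown holds 3 GGGCGG matches, of which a pair overlaps. RefSeq windows were found for 32 of the 40 genes, 35 windows in all. GGGCGG lay in 20 of these 35, against 35.7% of all 32851 windows in the table, and CCAAT in 12, against 37.4% of all. TATAAA lay in 5, against 13.6% of all, and TGANTCA in 1, against 7.81% of all. These counts describe letters in a window and not sites in use.

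With enalapril, 3 collagen chain genes rose and 2 fell, while 32 of the 37 tested did not pass (limma's moderated test over all tested genes, two-sided, Benjamini-Hochberg adjusted p under 0.05). Col6a1 and Col6a2, which encode chains of collagen VI, and Col12a1, the chain of collagen XII, rose by about 1.5-fold. Col22a1 and Col25a1 fell by a like factor at signals near the background. No gene of the fibrillar collagens, of the collagen IV, VIII and X networks or of collagens VII, XV, XVII and XVIII passed on the probe that stood for it. Other probes of Col1a1, Col8a1 and Col15a1 rose, and Col15a1 and Col27a1 passed when the probes of a gene were averaged, as given below. Over the whole array 4.33% of tested genes were called higher in enalapril (826 genes) and 9.85% were called lower (1881 genes), 14.2% in either direction, so that 3 higher and 2 lower of 37 is near the background of the array and is no result about collagens as a family. That background itself moved with the arrays used: without enalapril array 4, 1725 genes were higher and 3217 lower of 18912 tested, and with array weights 1936 were higher and 4001 lower, while the collagen counts stayed at 3 and 2 in both. The groups did not overlap for 3 collagen genes that were higher and 3 that were lower in enalapril, against 6.60% higher, 15.4% lower and 22.0% in either direction over all tested genes. The split of all calls moved with the scaling: 30.5% of all called genes were higher as reported, 41.7% with quantile normalization, 40.9% with centring on E1A control probes and 5.16% with the unscaled series matrix values.

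The median log2 change of the 37 genes was 0.04, beside −0.08 over all tested genes, with 23 positive and 14 negative values. The single values lay between −0.64 and 0.64. By class, the median was 0.61 for the 3 tested beaded filament genes, 0.27 for the 9 network genes, 0.10 for the pair of multiplexin genes and 0.05 for the 11 fibrillar genes. It was −0.03 for Col7a1 alone, −0.06 for the 7 tested FACIT genes (chains that attach to fibrils) and −0.09 for the 4 transmembrane genes. The sign of the median over all 37 turned with array weights, at −0.01, and with the series matrix values, at −0.32, where the median of all genes was −0.45. Values below therefore stand relative to the 75th percentile of each array.

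**Figure D1:**
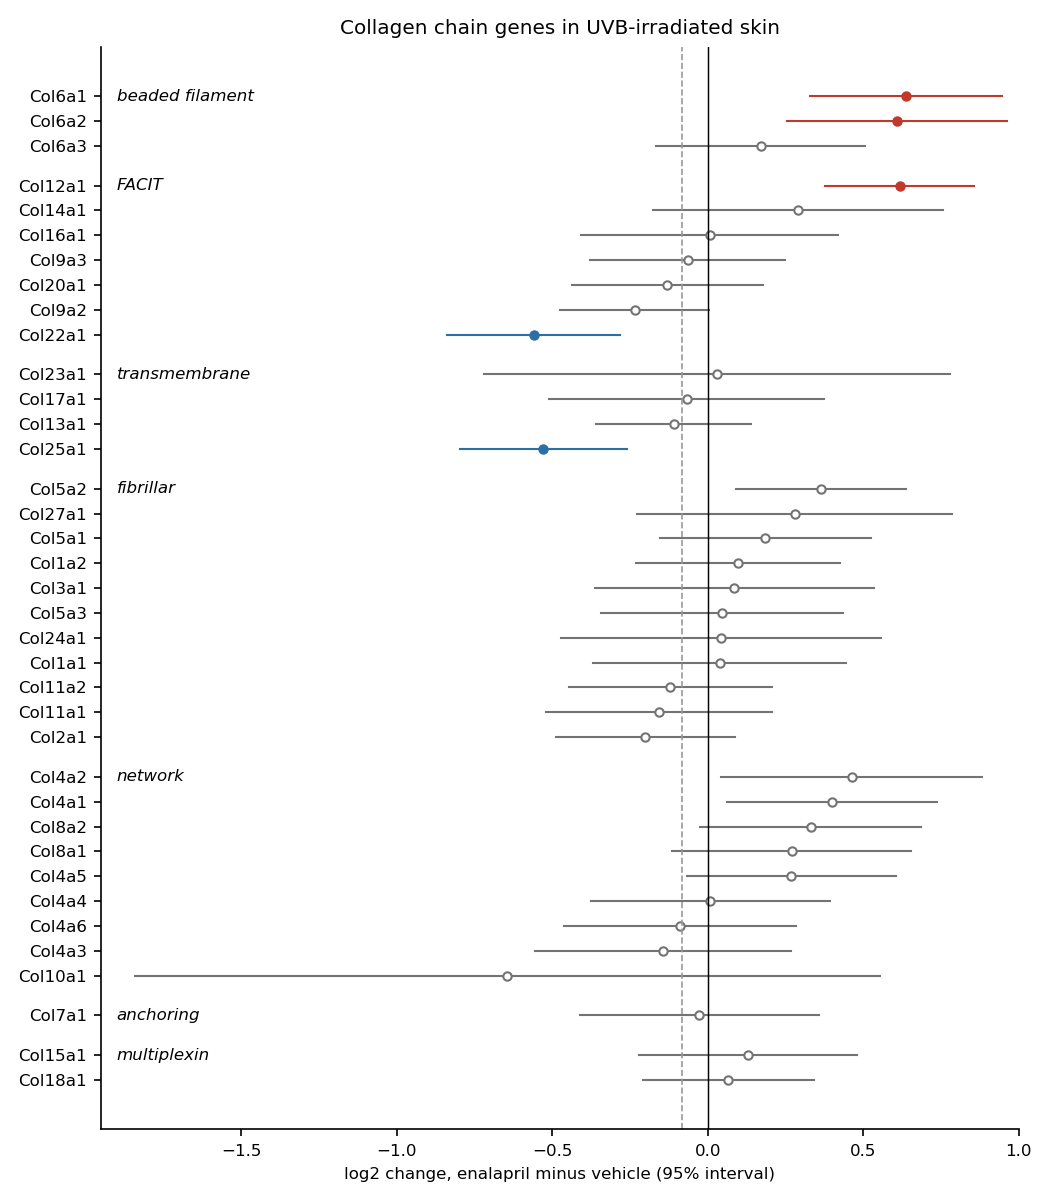
Log2 change of each tested collagen chain gene, enalapril minus vehicle, by class, with 95% intervals from limma; filled points passed the test (red higher, blue lower in enalapril), and the dashed line is the median of all tested genes. The intervals of Col6a1, Col6a2 and Col12a1 lie above 0 and those of Col22a1 and Col25a1 below it, while Col10a1 has the widest interval.

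Collagen VI is a heterotrimer whose classical chains come from Col6a1, Col6a2 and Col6a3. Levels are log2 of the processed intensity minus the 75th percentile of the array, and a level of 1 gene is not set against that of another. Col6a1 had log2 levels of 2.72, 2.67, 2.86 and 3.22 on enalapril arrays 1 to 4, against 2.27, 2.25, 2.32 and 2.08 on vehicle arrays 1 to 4. Every enalapril array lay above every vehicle array, and array 4 was the highest of them. The difference was 0.64 ± 0.14 (SE, n = 4 each, adjusted p = 0.0229), a fold of 1.56. Col6a2 had log2 levels of 1.26, 1.15, 1.44 and 1.84 on enalapril arrays 1 to 4, against 0.82, 0.85, 0.95 and 0.65 on vehicle arrays 1 to 4. The groups again did not overlap, and enalapril array 4 was once more the highest. The difference was 0.61 ± 0.16 (adjusted p = 0.0368), a fold of 1.52. Col6a3 had log2 levels of 3.99, 3.55, 3.83 and 4.22 on enalapril arrays 1 to 4, against 3.65, 3.81, 3.61 and 3.83 on vehicle arrays 1 to 4. Here the groups overlapped widely, with enalapril array 2 below all 4 vehicle arrays. The difference was 0.17 ± 0.15 (adjusted p = 0.458), with a 95% interval of −0.17 to 0.51, and whether it differed from those of the other chains was not tested.

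The collagen VI calls depended on single arrays and on the scaling. Without enalapril array 4, Col6a1 was at 0.52 (adjusted p = 0.0106) and Col6a2 at 0.47 (adjusted p = 0.0211), and both passed. Col6a1 missed the threshold without enalapril array 3 (0.0576) and without vehicle array 1 (0.0569), 2 (0.0571) or 4 (0.0588). Col6a2 missed it in the other 7 fits, with adjusted p between 0.0511 and 0.0899. Both calls were lost with median centring (adjusted p = 0.0528 for Col6a1 and 0.0806 for Col6a2), with E1A control centring (0.163 and 0.191) and with normexp as planned (0.350 and 0.361). No gene of the array passed with normexp as planned. With normexp repaired for 6 spots of enalapril array 3, an alternative chosen after seeing the data, both genes passed. With the series matrix values the changes were 0.27 for Col6a1 and 0.24 for Col6a2 (adjusted p = 0.523 and 0.572), and without the filter on dim probes Col6a2 missed the threshold (0.0664). The other probe of Col6a2 was at −0.02 ± 0.16 (adjusted p = 0.962 over all probes), with levels of −1.29 to −0.73 in enalapril against −1.25 to −0.77 in vehicle, so the gene's probes disagreed. Col6a1 had 1 probe.

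The array holds other collagen VI chains under older names, which the naming rule left out. The probe that RefSeq assigns to Col6a4 was at −0.11 ± 0.17 and that of Col6a6 at −0.08 ± 0.37, and neither passed over all probes (adjusted p = 0.713 and 0.914). The probe of Col26a1, a chain with collagenous stretches related to the EMI domain proteins, was at −0.40 ± 0.44 (adjusted p = 0.592). Col28a1, of a collagen VI-like family, was not well above background on any array.

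Collagen XII, encoded by Col12a1, is a homotrimer bound to fibrils of collagen I, and its gene is known to respond to mechanical load. Col12a1 had log2 levels of −1.28, −1.59, −1.33 and −1.29 on enalapril arrays 1 to 4, against −1.92, −2.12, −1.92 and −2.00 on vehicle arrays 1 to 4. Both groups were tight and did not overlap. The difference was 0.62 ± 0.11 (adjusted p = 0.0138), a fold of 1.53. Its adjusted p stayed under 0.05 in each of the 8 fits with an array left out, with a highest value of 0.0411. The call was lost with centring on the E1A control probes (0.58, adjusted p = 0.148), with the series matrix values (0.25, adjusted p = 0.553) and with normexp background correction (0.72, adjusted p = 0.301). No gene of the array passed with that normexp, while Col12a1 passed with the repaired normexp.

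Col22a1 encodes collagen XXII, a FACIT chain known from tissue junctions such as that of muscle and tendon. Col22a1 had log2 levels of −3.69, −3.82, −3.45 and −3.74 on enalapril arrays 1 to 4, against −3.34, −3.13, −2.96 and −3.03 on vehicle arrays 1 to 4. All enalapril arrays lay below all vehicle arrays. The level fell by 0.56 ± 0.12 on the log2 scale (adjusted p = 0.0247). The other probe of the gene also fell, by 0.75 ± 0.19 on the log2 scale (adjusted p = 0.0409 over all probes), and its groups did not overlap. Col25a1 encodes collagen XXV, a transmembrane chain known from neurons and from developing muscle. Col25a1 had log2 levels of −5.84, −5.41, −5.39 and −5.44 on enalapril arrays 1 to 4, against −4.99, −4.98, −5.04 and −4.94 on vehicle arrays 1 to 4. The groups did not overlap, and enalapril array 1 lay lowest. The level fell by 0.53 ± 0.12 on the log2 scale (adjusted p = 0.0256), and neither of the other probes of Col25a1 passed the filter on dim signals.

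Both of these genes were dim. The processed intensity of Col22a1 was 62.4 to 82.8 in enalapril against 88 to 198 in vehicle, and that of Col25a1 was 18.7 to 20.7 in enalapril against 28 to 48.7 in vehicle. These intensities are not scaled between arrays, and the highest came from vehicle arrays 2 and 3, which had the highest 75th percentile. They are values after background subtraction, unlike the local background itself. The median local background of the arrays was 48 to 52 in enalapril and 57 to 66 in vehicle. The background thus moved with the groups in the same direction as these genes, and its part in the result was not tested. With normexp repaired for 6 spots of enalapril array 3, an alternative chosen after seeing the data, the changes were −0.17 for Col22a1 (adjusted p = 0.336) and −0.08 for Col25a1 (adjusted p = 0.736). With normexp as planned they were 0.38 and 0.62, and neither passed, nor did any gene of the array. Both normexp settings add an offset of 50 to the intensities, which by itself shrinks differences between values this dim. These fits therefore cannot show what part the background had. Col22a1 missed the threshold without enalapril array 1 (0.062) or 2 (0.0679) or vehicle array 2 (0.0614) or 4 (0.0618). Col25a1 missed it without enalapril array 2 (0.0562) or 3 (0.0504) or vehicle array 1 (0.0661), 2 (0.0653) or 4 (0.0635). It also missed it with quantile normalization (−0.41, adjusted p = 0.130) and without the filter on dim probes (0.0504), and with E1A control centring neither Col22a1 (adjusted p = 0.185) nor Col25a1 (0.232) passed. The skeletal muscle markers Mylpf, Tnnt3, Tnnc2, Tnni2 and Pvalb fell as well, 5 of 10 in the list against 9.85% of all tested genes, and the summed linear level of that list was 603 to 711 in enalapril against 761 to 1055 in vehicle; its part in the Col22a1 and Col25a1 results was not tested. In whole skin, fewer cells of a type and less RNA per cell cannot be told apart.

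**Figure D2:**
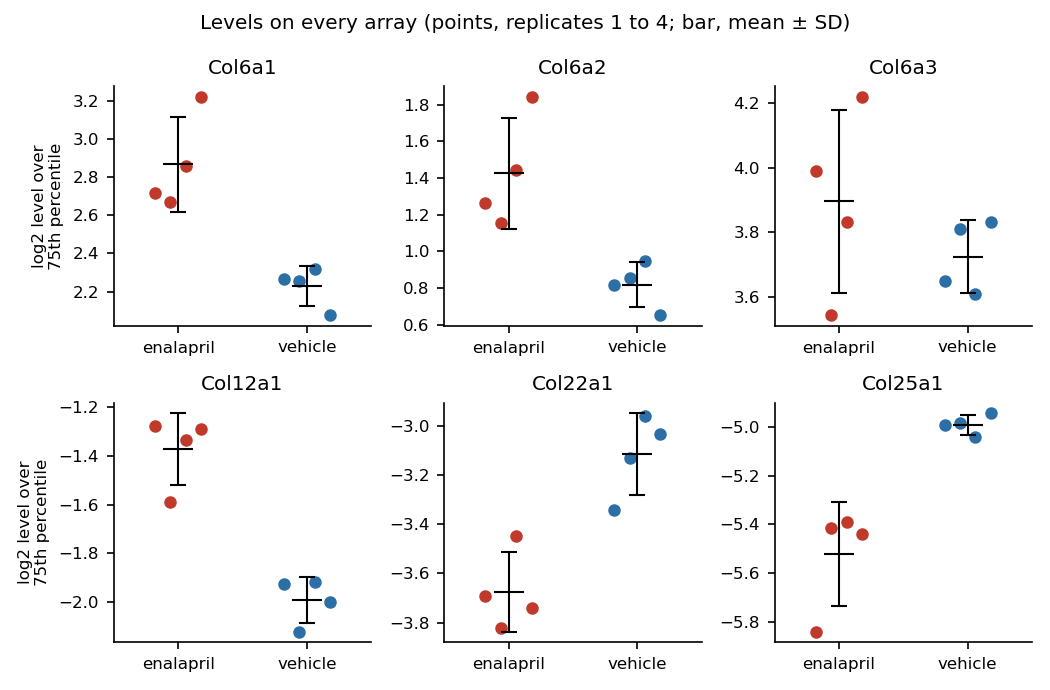
Log2 level over the array's 75th percentile on each array, enalapril left and vehicle right, with mean and SD in black, for the 5 called collagen genes and Col6a3. The groups are apart for Col6a1, Col6a2, Col12a1, Col22a1 and Col25a1 and overlap for Col6a3; each panel has its own vertical range.

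The remaining FACIT genes did not pass, and Col9a2 is given on every array because its groups did not overlap, a choice made after its values were seen. Col9a2 had log2 levels of −4.42, −4.38, −4.37 and −4.46 on enalapril arrays 1 to 4, against −4.01, −4.35, −4.28 and −4.04 on vehicle arrays 1 to 4. The groups of this collagen IX chain gene, known from cartilage, did not overlap, but the difference of −0.24 ± 0.11 did not pass (adjusted p = 0.163). Col14a1, which encodes a fibril-surface chain of the dermis, was at 0.29 ± 0.20, Col16a1 at 0.01, Col9a3 at −0.06 and Col20a1 at −0.13. Col9a1 was well above background on 0 enalapril arrays and on 2 vehicle arrays, and was not tested. With enalapril values raised to the lowest signal well above background, its level was 1.26-fold lower in enalapril. This is no strict bound, since the vehicle mean includes arrays where the probe was also not well above background. Col19a1 was not well above background on any array.

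The fibrillar genes, which encode most of the collagen of skin, did not pass in either direction on the probe that stood for each. Col1a1 had log2 levels of 6.89, 6.99, 7.09 and 7.12 on enalapril arrays 1 to 4, against 7.13, 6.65, 6.70 and 7.45 on vehicle arrays 1 to 4. Col1a1 encodes the alpha 1 chain of collagen I. Vehicle arrays 4 and 2 were its highest and lowest of the 8, and all enalapril arrays lay between them. The difference was 0.04 ± 0.18 (adjusted p = 0.903), with a 95% interval of −0.37 to 0.45. A further Col1a1 probe, also well above background on all 8 arrays, rose by 0.89 ± 0.21 (adjusted p = 0.0365 over all probes), so the gene's probes disagreed. Col1a2 had log2 levels of 7.87, 7.97, 8.10 and 8.005 on enalapril arrays 1 to 4, against 8.04, 7.61, 7.70 and 8.20 on vehicle arrays 1 to 4. Col1a2 encodes the other chain of collagen I and had the same extremes. The difference was 0.10 ± 0.14 (adjusted p = 0.674), with a 95% interval of −0.23 to 0.43. A further, much dimmer Col1a2 probe was at 0.99 ± 0.44 and did not pass (adjusted p = 0.177 over all probes). Col3a1 had log2 levels of 6.86, 6.96, 7.04 and 7.10 on enalapril arrays 1 to 4, against 7.05, 6.496, 6.63 and 7.44 on vehicle arrays 1 to 4. For this gene of collagen III, which forms fibrils together with collagen I, vehicle arrays 4 and 2 were again the extremes. The difference was 0.09 ± 0.20 (adjusted p = 0.799), with a 95% interval of −0.36 to 0.53. Vehicle arrays 2 and 3, where these genes were lowest, had the highest 75th percentile, and its part was not tested. Before scaling, Col1a1 had intensities of 124944, 154729, 160504 and 154055 on vehicle arrays 1 to 4. The 75th percentile of these arrays was 892, 1540, 1540 and 884, so this bright probe did not follow it in step. The small changes of these genes therefore depend on the scaling, and the reason was not tested. With quantile normalization the changes were 0.21 ± 0.11 for Col1a1, 0.21 ± 0.09 for Col1a2 and 0.26 ± 0.13 for Col3a1. None passed (adjusted p = 0.241, 0.145 and 0.223). Over 19 other settings Col1a1 lay between −0.33 and 0.31, Col1a2 between −0.27 and 0.54, and Col3a1 between −0.28 and 0.26. The 95% intervals above are not limits of detection. A call needed adjustment over all tested genes, so changes outside them could also have been missed with 4 arrays a group.

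Collagen V controls the diameter of collagen I fibrils. Col5a1 had log2 levels of 3.59, 3.096, 3.55 and 3.65 on enalapril arrays 1 to 4, against 3.23, 3.55, 3.15 and 3.22 on vehicle arrays 1 to 4. The groups overlapped and the difference was 0.19 ± 0.15 (adjusted p = 0.426). Col5a2 had log2 levels of 2.89, 2.57, 3.04 and 3.01 on enalapril arrays 1 to 4, against 2.45, 2.58, 2.50 and 2.52 on vehicle arrays 1 to 4. Col5a2 had the smallest p of the fibrillar genes, with 3 enalapril arrays above all 4 vehicle arrays and enalapril array 2 among them. The difference of 0.36 ± 0.12 did not pass (adjusted p = 0.076), with a 95% interval of 0.09 to 0.64. It passed with quantile normalization (0.51, adjusted p = 0.0331) and without enalapril array 2 (0.47, adjusted p = 0.0478). Col5a2 lies next to Col3a1 on chromosome 1, with 0 coding genes between them.

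The other fibrillar genes ranged between −0.20 for Col2a1 and 0.28 for Col27a1, and none passed on the probe that stood for it. Further Col27a1 probes were at 0.65 and 1.75 and did not pass (adjusted p = 0.165 and 0.115 over all probes). With the probes of a gene averaged, Col27a1 passed (0.89, adjusted p = 0.0353). Col11a1 was at −0.16, Col11a2 at −0.12, Col24a1 at 0.04 and Col5a3 at 0.05. Col2a1 encodes the collagen of cartilage, and its chosen probe and 1 of the others were well above background on all 8 arrays, while a further probe of the gene was on none. Of 6 cartilage markers, Acan, Comp and Sox9 were well above background on all 8 arrays, while Matn1, Matn3 and Hapln1 were on 0 arrays.

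**Figure D3:**
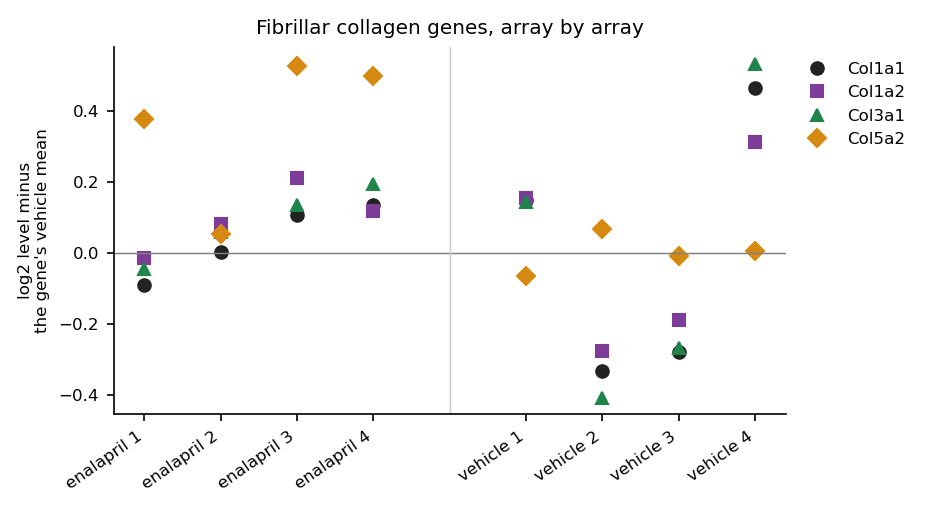
Log2 level of Col1a1, Col1a2, Col3a1 and Col5a2 on each array, minus the mean of the 4 vehicle arrays for that gene. Col1a1, Col1a2 and Col3a1 lie highest on vehicle array 4 and lowest on vehicle array 2, with the enalapril arrays between, while Col5a2 lies above its vehicle mean on all 4 enalapril arrays.

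Basement membrane collagen IV is made of chains encoded in head-to-head gene pairs. Col4a1 had log2 levels of 1.39, 1.06, 1.38 and 1.67 on enalapril arrays 1 to 4, against 1.02, 0.95, 1.18 and 0.74 on vehicle arrays 1 to 4. Enalapril arrays 1, 3 and 4 lay above all vehicle arrays and array 2 did not. The difference of 0.40 ± 0.15 did not pass (adjusted p = 0.105). Col4a2 had log2 levels of 1.51, 1.56, 1.92 and 2.22 on enalapril arrays 1 to 4, against 1.43, 1.26, 1.59 and 1.06 on vehicle arrays 1 to 4. The groups overlapped more, and enalapril array 4 lay highest. The difference of 0.46 ± 0.18 did not pass (adjusted p = 0.124). Without enalapril array 4 the differences were 0.30 and 0.32, and the other probes of these genes were at 0.53 for Col4a1 and 0.64 for Col4a2, which did not pass either. For the neighbours Col4a3 and Col4a4 on chromosome 1 the changes were −0.14 and 0.01, and for Col4a5 and Col4a6 on the X chromosome 0.27 and −0.09.

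Collagen VIII, known from the membrane beneath endothelium, is encoded by Col8a1, at 0.27 ± 0.17, and Col8a2, at 0.33 ± 0.16. Neither passed (adjusted p = 0.303 and 0.182), while a further Col8a1 probe rose by 0.70 ± 0.16 (adjusted p = 0.0342 over all probes). Col10a1, known from growth cartilage, had the most negative change of the 37 genes, −0.64 ± 0.53, and was well above background on 2 enalapril and 2 vehicle arrays. Its values ranged from −7.82 to −6.02 in enalapril and from −7.16 to −5.13 in vehicle, and it did not pass (adjusted p = 0.432).

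The collagens of the junction between epidermis and dermis did not pass. Col7a1 had log2 levels of 3.83, 3.44, 3.74 and 3.96 on enalapril arrays 1 to 4, against 3.56, 3.73, 3.60 and 4.19 on vehicle arrays 1 to 4. Col7a1, whose product forms the anchoring fibrils, overlapped throughout and differed by −0.03 ± 0.17 (adjusted p = 0.930). Col17a1 had log2 levels of 5.21, 5.23, 5.37 and 4.62 on enalapril arrays 1 to 4, against 4.94, 5.36, 4.95 and 5.46 on vehicle arrays 1 to 4. Col17a1, a hemidesmosome component, had enalapril array 4 as its lowest value and differed by −0.07 ± 0.19 (adjusted p = 0.841). The sign of the Col17a1 change was the other in 5 of 19 other settings. The other transmembrane genes Col13a1 and Col23a1 were at −0.11 and 0.03. Col15a1 had log2 levels of 0.42, 0.22, 0.53 and 0.62 on enalapril arrays 1 to 4, against 0.30, 0.66, 0.33 and −0.01 on vehicle arrays 1 to 4. The groups of Col15a1 overlapped, and its lowest and highest values were both vehicle arrays. Col15a1 and Col18a1, the multiplexin genes, encode basement membrane proteins that carry heparan or chondroitin sulfate chains, and the C-terminal fragment of the Col18a1 product is endostatin. Their changes were 0.13 ± 0.15 for Col15a1 (adjusted p = 0.60) and 0.07 ± 0.12 for Col18a1 (adjusted p = 0.741). A further Col15a1 probe rose by 1.03 ± 0.17 (adjusted p = 0.0169 over all probes).

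The 28 genes with several probes gave 38 other probes, of which 28, from 23 genes, passed the filter on dim signals. With every probe of the array tested, 3.82% were called higher in enalapril and 6.61% were called lower. Of the 28 other collagen probes, 3 were higher and 1 was lower, and 15 had the sign of the chosen probe while 13 had the other. One of those that rose was a further probe of Col1a1, A_51_P377094, with levels of 4.91 to 5.61 in enalapril against 3.93 to 4.72 in vehicle and a difference of 0.89 ± 0.21 (adjusted p = 0.0365). The chosen Col1a1 probe, A_52_P525107, was at 0.04 and the third at −0.01, so it alone of the 3 passed. The others that rose were A_52_P170882 of Col15a1, at 1.03 ± 0.17 (adjusted p = 0.0169), and A_52_P292792 of Col8a1, at 0.70 ± 0.16 (adjusted p = 0.0342). Each of these 3 had a chosen partner that did not pass, and when the probes of a gene were averaged, Col15a1 (0.58, adjusted p = 0.0398) and Col27a1 (0.89, adjusted p = 0.0353) passed while Col6a2 did not (0.30, adjusted p = 0.215).

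**Figure D4:**
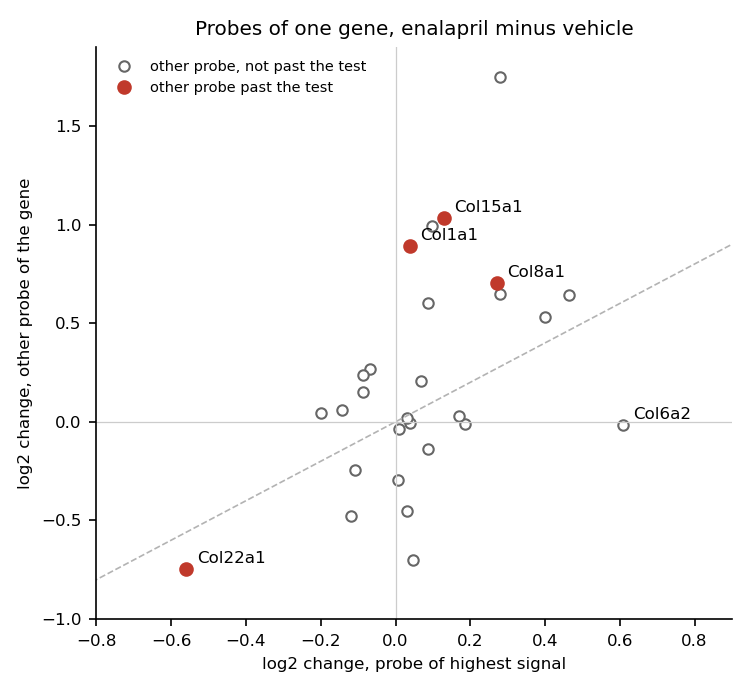
Log2 change, enalapril minus vehicle, of each other probe of a collagen gene (vertical) against that of the gene's probe of highest signal (horizontal), for the 28 other probes past the filter; the dashed line marks equal values and filled points passed the test over all probes. The Col1a1, Col8a1 and Col15a1 probes that rose lie above the dashed line, and the other Col6a2 probe lies near 0.

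The genes that make, bind and cut collagen were described from lists of known members. Of 30 genes for collagen synthesis and processing, 27 were tested, 0 were higher and 1 was lower in enalapril, against 4.33% higher and 9.85% lower over all tested genes, with a median of 0.06. The gene that fell was Ppib, cyclophilin B, a prolyl isomerase that aids folding of the triple helix, at −0.38 ± 0.09 (adjusted p = 0.0285). Its levels were 5.12 to 5.24 in enalapril against 5.42 to 5.65 in vehicle, and the groups did not overlap. Lox, the lysyl oxidase that starts crosslinking, was at 0.53 ± 0.15 (adjusted p = 0.0502), P3h1, a prolyl 3-hydroxylase, at 0.46 (adjusted p = 0.0661), and Plod1, a lysyl hydroxylase, at 0.45 (adjusted p = 0.152).

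Among 10 collagen receptor genes, 8 were tested, 2 rose and 0 fell, against 4.33% higher and 9.85% lower over all tested genes. Itgb1, the beta 1 integrin chain shared by the collagen-binding integrins, was at 1.49 to 1.75 in enalapril against 1.20 to 1.26 in vehicle, a difference of 0.42 ± 0.09 (adjusted p = 0.0240). Mrc2, which encodes Endo180, a receptor that takes up collagen fragments, was at 0.54 to 1.01 in enalapril against 0.09 to 0.46 in vehicle, a difference of 0.56 ± 0.14 (adjusted p = 0.0374). Neither gene's groups overlapped. Itga1, an alpha chain that pairs with Itgb1, at 0.64, and the discoidin receptor gene Ddr2, at 0.35, did not pass. Of the 9 genes for collagenases, gelatinases and their inhibitors none passed, at 0 higher and 0 lower. Mmp14, a membrane-anchored collagenase, was at 0.46 (adjusted p = 0.0802), Mmp9, a gelatinase, at −0.69 (adjusted p = 0.107), and Timp4, an inhibitor, at −0.55 (adjusted p = 0.0947).

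The cell type lists varied beside these values. No fibroblast marker passed of 8 tested, with a median of 0.06 and a summed linear level of 321 to 388 in enalapril against 321 to 406 in vehicle. No keratinocyte marker passed of 7, with a summed level of 1092 to 1330 in enalapril against 955 to 1628 in vehicle. Markers of both cell types were thus measured in both groups, as the label of skin implies. Over all tested genes 4.33% were higher and 9.85% lower in enalapril. Among adipocyte markers 5 of 8 fell, with a summed level of 195 to 301 in enalapril against 298 to 386 in vehicle, and among smooth muscle and pericyte markers 1 of 6 fell, with 49.9 to 58.7 in enalapril against 59.2 to 83.1 in vehicle. Of the leukocyte markers 1 of 6 rose, of the hair follicle markers 1 of 7 fell, and of the endothelial, Schwann cell and cartilage markers none passed of 6, 5 and 3 tested. The summed level of the Schwann cell list was still 19.0 to 23.9 in enalapril against 24.6 to 29.1 in vehicle. For the leukocyte, hair follicle, endothelial and cartilage lists the summed levels of the groups overlapped. The part of these shifts in the collagen values was not tested.

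**Figure D5:**
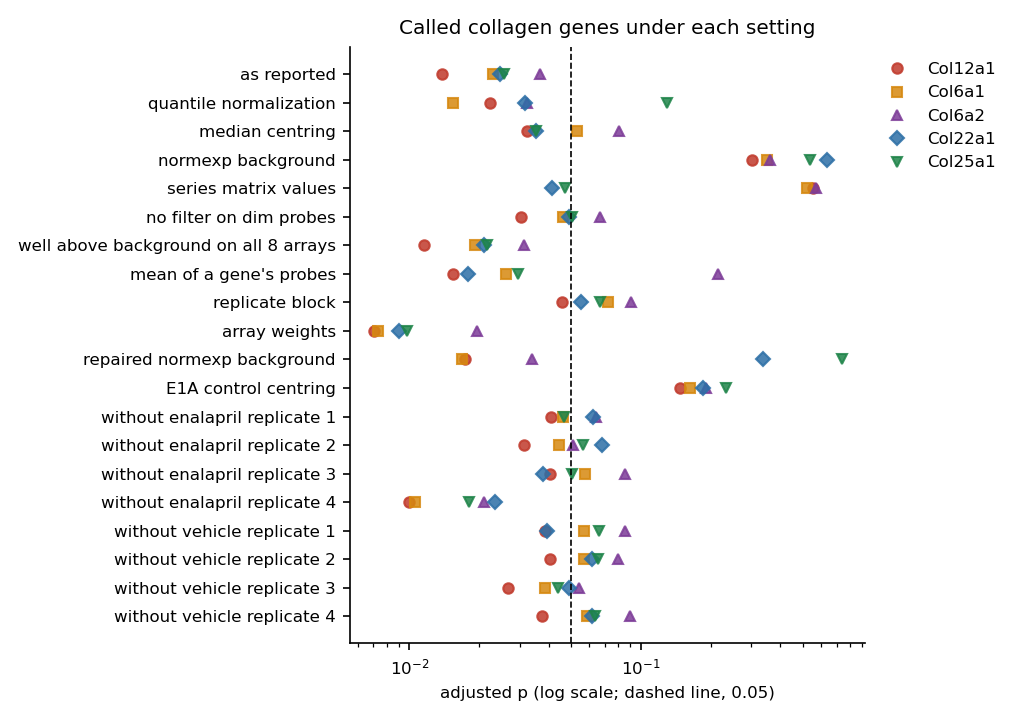
Adjusted p of the 5 called collagen genes (horizontal, log scale, dashed line at 0.05) as reported and under each of 19 other settings (vertical). Col12a1 lies left of the line with each single array left out, while the other 4 genes cross it in several of these fits. With E1A control centring and with normexp as planned all 5 lie to the right. With the repaired normexp Col12a1, Col6a1 and Col6a2 lie to the left.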

How the data were processed

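RNA of 8 dorsal skin samples was measured on 8 1-colour (Cy3) Agilent arrays. The scanner files hold the deposited processed intensity, after background subtraction and detrending within the array but no scaling between arrays, made with version 9.1.3.1 of Agilent Feature Extraction per the file headers (9.1 per the submitters' processing notes). Of the other deposited values, its flags for spots well above background and for outliers served as filters. The series matrix holds deposited log2 values, which equalled the log2 of the processed intensity, not centred; further steps are not given in the sources used here.

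Spots with an outlier flag were dropped and spots of a probe averaged. Values are log2 intensity minus the 75th percentile over 43379 non-control spots. Genes with a probe well above background on 4 or more of the 8 arrays were tested with limma 3.58.1 in R 4.3.3 (lmFit, eBayes; group as the only term; files read with version 1.17.8 of data.table), with Benjamini-Hochberg adjustment over all 19097 genes, two-sided. Errors are limma's standard errors. The number of arrays limits the precision. Where the text refers to every probe, the same test was run on 28580 probes. The fold given for Col9a1 uses, per enalapril array, the higher of the probe's own value and the lowest signal well above background. It sets their mean against the mean of all 4 vehicle values. The pipeline was tested on simulated data.

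Other names came from RefSeq (GRCm38.p6), used for names and neighbours; promoter windows are from the same source. Values on every array are given for called members, for Col1a1, Col1a2, Col3a1, Col5a1, the collagen VI genes, Col4a1, Col4a2, Col7a1 and Col17a1, and for the member with the smallest p in each class, with Col9a2 added after its values were seen; other pathway genes are the up to 4 with the smallest p in each list. The members and lists were chosen with earlier results of these data known. The alternatives were quantile normalization, median centring, normexp with an offset of 50, the series matrix values, other filters, averaged probes per gene, the replicate number as a block, array weights and each array left out. A repaired normexp and centring on 10 E1A control probes were chosen after seeing the data. Slide and scan could not be fitted, because each held 1 group.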

Additional observations from a re-analysis of the deposited data

Results flagged for a closer look

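In 3 of 74 groups of 4 arrays, 1 array lay far from the others by Dixon's test, which chance alone gives in about 1 of 20 groups. Enalapril array 1 had a Col25a1 level of −5.84, with the nearest of its group at −5.44. Vehicle array 3 had a Col2a1 level of 2.49, with the nearest at 2.87. Vehicle array 1 had a Col8a1 level of 2.95, with the nearest at 2.45. Of these genes Col25a1 was called, and without enalapril array 1 its change was −0.42 (adjusted p = 0.0464). The cause of each was not tested.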

How the results depend on the processing

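As reported, 3 collagen genes were higher and 2 lower in enalapril, with a median log2 change of 0.04. Quantile normalization gave 4 higher and 1 lower, median centring 1 higher and 2 lower, no filter on dim probes 2 higher and 1 lower, the mean of a gene's probes 4 higher and 2 lower, the filter asking for all 8 arrays the same counts as reported, and array weights the same counts as reported with a median of −0.0123. The series matrix values, which carry no scaling, gave 0 higher and 3 lower (Col10a1, Col22a1 and Col25a1) with a median of −0.32. Normexp gave 0 and 0, with 4 collagen genes at an unadjusted p under 0.05, and no gene of the array passed, with 2642 at an unadjusted p under 0.05; Col22a1 turned to 0.38 (adjusted p = 0.637) and Col25a1 to 0.62 (adjusted p = 0.540). The repaired normexp gave 3 higher and 0 lower, and E1A control centring 0 and 0, with 5 at an unadjusted p under 0.05. The replicate number as a block gave 1 higher, Col12a1, and 0 lower (adjusted p = 0.0456 for Col12a1, 0.0722 for Col6a1, 0.0908 for Col6a2, 0.0549 for Col22a1 and 0.0669 for Col25a1), with 234 higher and 376 lower over all genes against 826 and 1881 as reported. Correlations of same-numbered arrays were −0.159, 0.048, 0.146 and −0.020, and 1 of 4 enalapril arrays correlated best with its own number. With 4 arrays a group these values cannot decide whether the numbers pair the samples. With each array left out, between 1 and 3 collagen genes were higher, between 0 and 2 lower, and the median lay between 0.006 and 0.108. Over all genes, 1725 were higher and 3217 lower without enalapril array 4. Over 698 pairs of a collagen gene and a setting, 558 kept direction and side of the threshold, 48 gained or lost a call, 90 uncalled values had another sign, and 2 called genes took another sign. The causes were not tested. Signals near the background limit Col22a1, Col25a1, Col10a1 and Col9a1.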
